A study of Mus musculus with 2 samples.

Results

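Foxp3-positive regulatory T cells (Treg cells) of the mouse colon were examined in 2 droplet libraries, in which they made up 72 of 20052 cells. The cells were chosen by their own transcript counts: a cell was taken as a Treg cell when it held at least 1 unique molecular identifier (UMI, a tag that marks a single captured transcript) of Foxp3, at least 1 UMI of the CD3 genes Cd3d, Cd3e and Cd3g together, and no UMI of Csf1r, a macrophage receptor gene, or of Cd79a, a B cell receptor gene. The library titled Runx3_fl gave 29 such cells and the library titled Runx3 gave 43. The comparison population was the T cells of the same library with at least 2 CD3 UMIs and no Foxp3 UMI, 3456 cells in Runx3_fl and 619 in Runx3.

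The study set mice in which Runx3 is floxed and Cre is driven by Lyz2 (RUNX3 fl/fl-Lyz2-Cre) against RUNX3 fl/fl littermates, each as a pool of young adult male mice, and asked how this transcription factor acts in gut macrophages. By flow cytometry the study also counted Foxp3-positive CD4 T cells in the colon, and reported fewer in the mice with Cre. The titles name neither Cre nor its absence, so no genotype is assigned here and the libraries go by their titles. Both are labelled as CD11b+ cells of the gut lamina propria, taken from the colon by a Percoll gradient and sorting, and the Lyz2 promoter drives Cre in myeloid cells. With 1 library a group there is no replicate: nothing below is a test, and the intervals cover counting error only.

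Treg cells are CD4 T cells that restrain other immune cells. Foxp3 is the transcription factor that fixes their identity, Il2ra encodes the alpha chain of the interleukin 2 receptor by which they take up that cytokine, and Ctla4 encodes a surface protein that strips costimulatory ligands from antigen-presenting cells. In the colon they include thymus-derived cells, usually marked by Ikzf2 (Helios), and cells induced by the microbiota, and both kinds can make interleukin 10 (Il10).

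The 29 Treg cells of Runx3_fl held 286902 UMIs and the 43 of Runx3 held 471244, with medians of 8348 and 8954 UMIs a cell. Single cells ranged from 1074 to 22074 UMIs in Runx3_fl and from 1587 to 27624 in Runx3. The Foxp3-zero T cells were deeper in Runx3_fl, with a median of 13251.5 UMIs a cell against 9207 in Runx3. The libraries shared 37 cell barcodes, of which 0 belonged to Treg cells. Although CD11b is named in the labels, its gene Itgam had a UMI in 9 of 29 and 6 of 43 Treg cells. Xist, the RNA of the inactive X chromosome, stood apart between the libraries: 10 of 29 Treg cells of Runx3_fl held Xist and no Y-linked UMI, 15 held Y-linked UMIs and no Xist, and 2 held both, whereas 0 of 43 in Runx3 held Xist. Among all T cells of Runx3_fl with a CD3 UMI and none of Csf1r or Cd79a, 1022 held Xist and no Y-linked UMI and 2069 the reverse, so the library did not match the male mice of the study.

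The Foxp3 rule was met with few transcripts. A single Foxp3 UMI was the basis in 11 of 29 cells of Runx3_fl and 15 of 43 of Runx3, and the largest numbers in a cell were 7 and 9. Pooled over the cells, Foxp3 stood at 258 CPM (UMIs of the gene per 1000000 UMIs of the pooled cells, with a 95% exact Poisson interval of 203 to 324) in Runx3_fl and at 239.8 CPM (198 to 288) in Runx3, values that the rule itself fixes to be above 0. Foxp3 (chromosome X, 7573644 to 7595245 on the plus strand of GRCm38) shares its strand with the long non-coding RNA gene Flicr, so reads of the overlap cannot be told apart.

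Of the other 4 markers, Ctla4 had a UMI in 28 of 29 and 40 of 43 Treg cells, Ikzf2 in 22 and 31, Il2ra in 20 and 33, and Tnfrsf18, which encodes the costimulatory receptor GITR, in 17 and 32. At least 3 of these 4 were present in 19 of 29 cells (65.5%) and in 32 of 43 (74.4%). A single cell in each library had 0 of the 4. Cells just inside the rule, with 1 Foxp3 UMI, held Ctla4 in 90.9% of 11 cells in Runx3_fl and in 86.7% of 15 in Runx3, and Ikzf2 in 63.6% and 60%. Thinned to 2000 UMIs a cell, so that depth was equal, Ctla4 was found in 85.7% of Treg cells in both libraries, against 67.5% of Foxp3-zero T cells in Runx3_fl and 18.3% in Runx3. The markers were common without Foxp3 in Runx3_fl: of its Cd4-positive, Cd8-negative Foxp3-zero T cells, with a median depth of 13746 UMIs, 98.5% held Ctla4, 68.3% Il2ra, 67.3% Tnfrsf18 and 56.7% Ikzf2. After thinning, those cells of Runx3_fl held Ctla4 in 80.9%, Il2ra in 34.4%, Ikzf2 in 31.6% and Tnfrsf18 in 19.6%, where Treg cells held the last 3 in 60.7, 71.4 and 42.9%. In Runx3 the thinned shares for these 4 genes were 26.9, 7.60, 13.5 and 9.94%, against 85.7, 33.3, 54.8 and 26.2% of Treg cells. Just outside the rule, all 4 markers were found together in 683 of 3456 Foxp3-zero T cells (19.8%) in Runx3_fl and in 26 of 619 (4.20%) in Runx3.

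**Figure D1:**
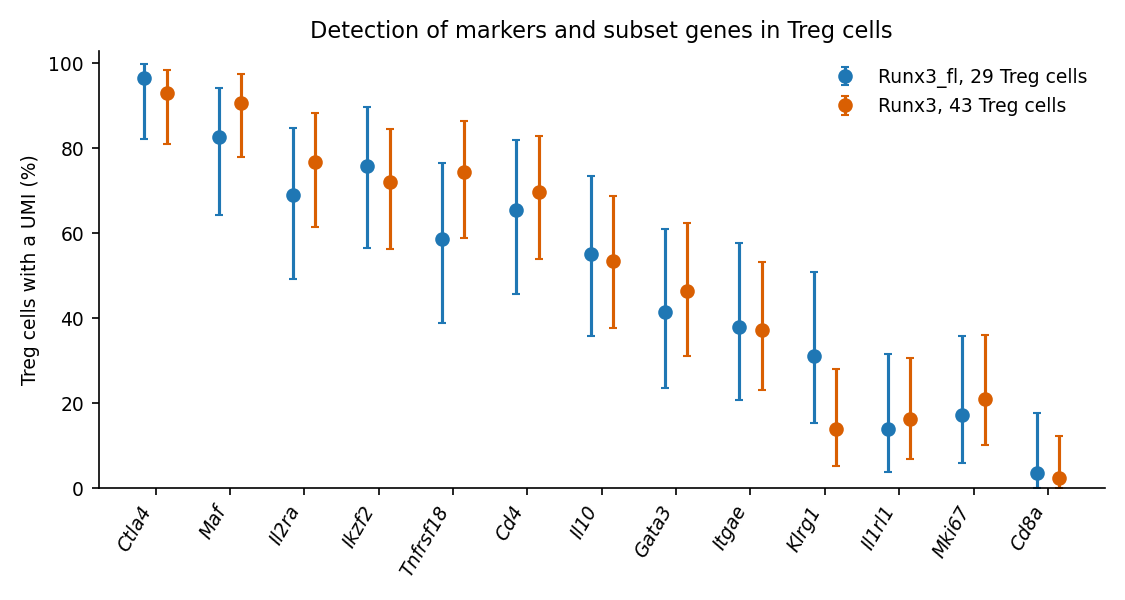
Share of Treg cells with at least 1 UMI of a gene (y axis, percent) for 13 genes, with exact Clopper-Pearson 95% intervals, for the 29 cells of Runx3_fl and the 43 of Runx3. Ctla4 was found in 28 and 40 cells, whereas Il1rl1 was found in 4 and 7.

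Among subset genes, Cd4 without Cd8 was detected in 19 of 29 and 29 of 43 Treg cells, and a Cd8a or Cd8b1 UMI in 1 and 2. Maf, a factor that controls Il10 in T cells, was present in 24 and 39 cells, and Gata3, a factor of type 2 and tissue Treg cells, in 12 and 20. Il1rl1, the interleukin 33 receptor gene, was found in 4 and 7 cells, each of which held Ikzf2. Il10 was found in 16 of 29 cells (55.2%) and 23 of 43 (53.5%), and 15 and 22 of those also held Maf. Il10 was uneven among cells: a single cell held 37 of 193 Il10 UMIs in Runx3_fl and another held 97 of 238 in Runx3. At these depths a gene with no UMI in a cell was not detectable there, which does not mean that it was absent.

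Treg cells were a larger share of T cells in library Runx3. Among cells with a CD3 UMI and none of Csf1r or Cd79a, 29 of 3510 (0.826%, 95% exact binomial interval 0.554 to 1.18%) were Treg cells in Runx3_fl and 43 of 572 (7.52%, 5.49 to 9.99%) in Runx3. Among the Cd4-positive, Cd8-negative part of these T cells the shares were 1.48% (19 of 1286) and 20.1% (29 of 144). With cells thinned to 2000 UMIs the shares of T cells were 0.376% (13 of 3461) and 4.50% (23 of 511), with 49 and 61 shallower cells left out. The intervals did not overlap on any of these counts. Of all kept cells, Treg cells were 0.244% in Runx3_fl and 0.527% in Runx3. The T cells they are counted among numbered 3510 in Runx3_fl, where 11885 cells were kept, and 572 in Runx3, where 8167 were kept. Since a sort preceded both libraries and each group is 1 library, sorting, library and genotype cannot be told apart. With no genotype assigned, these shares are not set against the flow cytometry of the study.

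Foxp3 in cells without a CD3 UMI gives a background of free RNA. It does not measure barcodes that caught a T cell with another cell, since those drop out once a CD3 UMI is read. Of kept cells with Foxp3 and CD3 UMIs, 18 in Runx3_fl and 35 in Runx3 also held Csf1r or Cd79a. A further 7 and 25 kept cells with Foxp3 had no CD3 UMI, 3 and 17 of them also without Csf1r or Cd79a. Cells with at least 2 Csf1r UMIs and no CD3 UMI, called macrophages here, held Foxp3 in 4 of 1420 in Runx3_fl (0.282%, median depth 13160.5 UMIs) and 2 of 1749 in Runx3 (0.114%, median 11533). B cells, with Cd79a and Ms4a1 and no CD3 UMI, held it in 0 of 132 in Runx3_fl, which allows a share of up to 2.27% (3 cells of the total), and in 2 of 1044 (0.192%) in Runx3. Cells with Ncr1, the gene of the natural killer cell receptor NKp46, and no CD3 UMI held it in 0 of 1219, which allows a share of up to 0.246%, and in 0 of 113, which allows up to 2.65%. The median depth of the T cells was 11723.5 UMIs in Runx3_fl and 6914.5 in Runx3. The Treg share of T cells was above this macrophage share in both libraries, and the intervals in Runx3_fl, 0.554 to 1.18% and 0.0768 to 0.720%, overlapped. Cells with CD3 UMIs were left out of that macrophage share, which may therefore be low.

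The marker genes themselves were then compared, as UMIs pooled over the cells of each population. Ctla4 stood at 2433 CPM (2256 to 2620.3) in Treg cells of Runx3_fl against 889 in its Foxp3-zero T cells, and at 1530.0 CPM (1420.3 to 1646) in Runx3 against 157. Ikzf2 stood at 2586 against 306 CPM in Runx3_fl and at 1795 against 537 in Runx3. Il2ra stood at 708 against 300.4 CPM and at 282 against 57.5, and Tnfrsf18 at 234 against 73.7 and at 257 against 47.0. All 4 were past 2-fold higher in Treg cells in both libraries, as were 2.58% of all genes measured, where a ratio is the log2 of CPM plus 1 in Treg cells over the same in Foxp3-zero T cells, which understates the change of low genes. The log2 ratio of Ctla4 was 1.45 in Runx3_fl and 3.28 in Runx3, while its level in Treg cells differed less between the libraries (log2 ratio -0.67) than its level in the Foxp3-zero T cells (-2.50). With Cd4-positive, Cd8-negative cells as the comparison, Ctla4 in Runx3_fl was at 0.98, just under 2-fold, and with those free of Csf1r and Cd79a Ctla4 was at 0.90 and Il2ra at 0.99. Without the condition on Csf1r and Cd79a they were at 0.96 and 0.58. With only the 15 Treg cells that had Y-linked UMIs and no Xist, Tnfrsf18 in Runx3_fl was at 0.56.

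**Figure D2:**
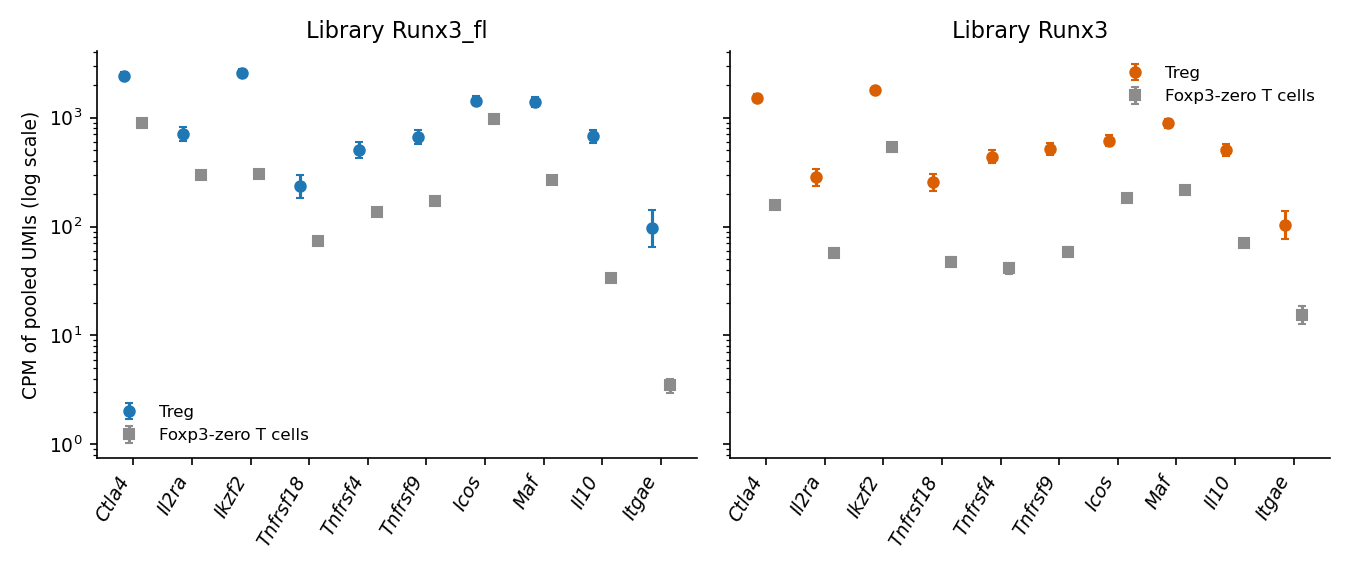
Pooled level of 10 genes (y axis, CPM on a log scale) in Treg cells (circles) and Foxp3-zero T cells (squares) of each library, with exact Poisson 95% intervals. Ikzf2 stood at 2586 against 306 CPM in Runx3_fl and at 1795 against 537 in Runx3.

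Over all genes, 3144 had a mean of at least 50 CPM over both populations in each library, the 6 genes of the rule left out. Of these, 81 (2.58%) were past 2-fold higher in Treg cells in both libraries and 23 (0.732%) were past 2-fold lower in both. In Runx3_fl alone 200 genes (6.36%) were higher and 104 (3.31%) lower, and in Runx3 alone 194 (6.17%) and 95 (3.02%). A further 7 genes (0.223%) were past 2-fold in opposite directions in the libraries. The medians of all 3144 genes were 0.01 and 0.07 on the log2 scale. Ranked by the library with the smaller ratio, the 12 leading genes were Myo3b, Nckap5, Neb, Il10, Frmd5, Sh3rf1, Itgae, Izumo1r, Nav2, Itgav, Cpm and Maf. A gene could pass the mean through a single population, as Itgae did in Runx3_fl with 97.6 against 3.48 CPM. For genes so low in Foxp3-zero T cells, the filter itself favours a large ratio.

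Some of these leading genes encode cytoskeletal proteins. Myo3b, a class III myosin, stood at 523 CPM in Treg cells against 7.31 in Foxp3-zero T cells of Runx3_fl, and at 248 against 15.3 in Runx3. Neb, which encodes the thin filament protein nebulin, stood at 241 against 19.4 CPM and at 197 against 11.7. Nckap5 was at 192 against 1.39 CPM and at 223 against 15.5, and was seen in 7 of 29 and 13 of 43 cells. Sh3rf1, a scaffold and ubiquitin ligase of the JNK pathway, was at 537 against 21.6 CPM and at 236 against 33.8. Frmd5 was carried by few cells, 3 in Runx3_fl and 5 in Runx3, with 49 of its 80 and 36 of its 126 UMIs in a single cell, and it had 0 UMIs in the 15 Treg cells of Runx3_fl with Y-linked UMIs and no Xist. Itgav, the integrin alpha V chain, was broader, with UMIs in 25 of 29 and 37 of 43 cells and 1133 against 162 CPM and 1169 against 242. On the annotated genome Myo3b and Nav2 overlap other genes of the same strand. So do the marker Ikzf2 and, among other genes named here, Gata3, Mctp2, Igkc, Dusp1 and Rtp4.

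**Figure D3:**
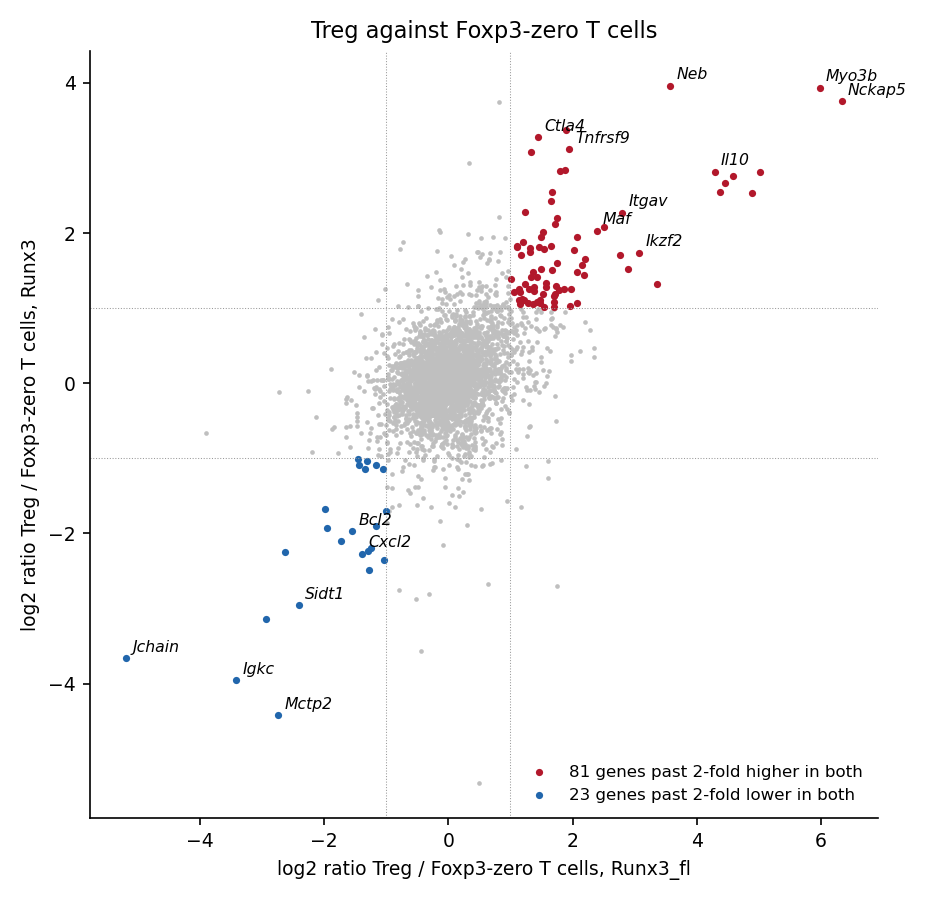
Log2 ratio of Treg cells over Foxp3-zero T cells in Runx3_fl (x axis) and in Runx3 (y axis) for 3144 genes. The dotted lines mark 2-fold, and the 81 genes in red and 23 in blue are past it in the same direction in both libraries.

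Some of the genes by which Treg cells suppress other cells were higher in Treg cells, and others were not past 2-fold. Of 10 measured genes of a list of 16, Il10, Areg, Izumo1r and Nt5e were past 2-fold higher in both libraries. Taken alone, each library had 6 past 2-fold higher and 0 lower. The medians of the list were 1.21 in Runx3_fl and 1.41 in Runx3. Over all genes measured, the shares past 2-fold higher were 2.58% in both libraries, 6.36% in Runx3_fl and 6.17% in Runx3. The same shares stand beside the lists of receptors, tissue genes and transcription factors that follow. Il10 stood at 673 CPM in Treg cells against 33.5 in Runx3_fl and at 505 against 70.8 in Runx3. Izumo1r, the Treg surface protein FR4, stood at 101 against 3.90 CPM and at 132 against 21.6. Nt5e, the ectoenzyme CD73 that makes adenosine, stood at 143 against 40.2 and at 278 against 38.4. Areg, the growth factor amphiregulin, was at 105 against 27.6 CPM and at 138 against 18.4, but in only 4 of 29 and 10 of 43 cells, and 22 of its 30 UMIs in Runx3_fl came from 1 cell. Against Cd4-positive, Cd8-negative cells its log2 ratio in Runx3_fl was 0.95, and with only the 15 Treg cells that had Y-linked UMIs and no Xist, which held 2 of the 30 UMIs, it was -1.05. Tgfb1 was close to the other T cells, at 265 against 177 CPM and at 331 against 275. Under the level filter, and so not among the counts, were Lrrc32 (GARP, a carrier of latent TGF-beta), at 48.8 against 0.419 CPM and 27.6 against 2.76, and Itgb8 (an integrin that frees TGF-beta), at 17.4 against 0.552 and 61.5 against 3.55. When cells were thinned, Itgb8 in Runx3_fl turned to a log2 ratio of -0.90.

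Of 9 measured genes of 10 for receptors of the TNF receptor family and costimulation, Tnfrsf4 (OX40), Tnfrsf9 (4-1BB), Tnfrsf18 and Cd27 were past 2-fold higher in both libraries and 0 were lower, and the medians were 0.94 and 1.52. Tnfrsf9 stood at 666 against 171 CPM in Runx3_fl and at 519.9 against 58.8 in Runx3. Tnfrsf4 stood at 509 against 136 and at 437 against 41.5, but against Cd4-positive, Cd8-negative cells of Runx3_fl its log2 ratio was 0.90. Cd27 in Runx3_fl was at 0.82 without the condition on Csf1r and Cd79a. Icos, a receptor that sustains effector Treg cells, had log2 ratios of 0.55 and 1.73, the latter 0.93 against Cd4-positive, Cd8-negative cells. Of the interleukin 2 pathway, only Il2ra of 7 measured genes was past 2-fold in both libraries. Il2rb and Il2rg, which complete the receptor, were at 0.44 and 0.58 in Runx3_fl and at 0.70 and 0.10 in Runx3. Socs2, a target of STAT5 signalling under the level filter, stood at 59.3 against 10.7 CPM and at 93.4 against 12.5.

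Of 7 measured genes of 12 typical of Treg cells in non-lymphoid tissue, Il10, Tnfrsf9, Areg, Maf and Itgae were past 2-fold higher in both libraries. The medians were 1.95 and 2.67. Apart from Itgae, these genes are also counted in the lists of suppression, receptors or transcription factors, so the lists are not separate results. Itgae encodes CD103, which binds E-cadherin on epithelium, and stood at 97.6 CPM against 3.48 in Runx3_fl and at 104 against 15.5 in Runx3, with UMIs in 11 of 29 and 16 of 43 cells. Cd8-positive Foxp3-zero T cells of Runx3 held it at 36.8 CPM and the Cd4-positive ones at 1.40. Rora, a factor of tissue-resident lymphocytes, was at 1652 against 873 CPM and at 1706 against 445. Ccr4, a chemokine receptor of skin- and mucosa-homing T cells that lay under the level filter, stood at 97.6 against 0.742 CPM and at 117 against 6.58, in 10 and 21 cells.

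Among 20 measured transcription factors, Ikzf2, Tox, Maf, Ikzf3 and Nfil3 were past 2-fold higher in both libraries and 0 were lower in both. In Runx3_fl Tox was at 0.49 against Cd4-positive, Cd8-negative cells, Ikzf3 at 0.87 with only the Treg cells that had Y-linked UMIs and no Xist, and Nfil3 at 0.75 after thinning, all under 2-fold. Ikzf3, which encodes Aiolos, stood at 976 against 211 CPM and at 870.0 against 276. Lef1 and Tcf7 are factors of naive and memory T cells. Lef1 was at 97.6 against 184 CPM in Runx3_fl and at 172 against 455 in Runx3, past 2-fold only in the latter, and Tcf7, under the level filter in Runx3_fl, at 10.5 against 30.5 and at 27.6 against 225. Genes of the T cell receptor and its signalling were close to other T cells: of 10 measured, 0 were past 2-fold in both libraries, with medians of -0.10 and 0.46.

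Genes lower in Treg cells in both libraries were led by Jchain, Igkc, Igha, Mctp2, Sidt1, Atp8b4, Znrf3, Cct6a, Ccl3, Bcl2, Cxcl2 and Pde3b. The rule asked the absence of Csf1r and Cd79a of Treg cells alone. Against Foxp3-zero T cells also free of both, Cxcl2 was at 0.13 in Runx3_fl and -0.73 in Runx3. Jchain was then at -0.55 and Igha at -0.89 in Runx3. Against these cells the other leading genes stayed past 2-fold lower in both libraries, Ccl3 in Runx3 only at -1.03. After thinning, Ccl3 was at -0.80 and Znrf3 at -0.96 in Runx3_fl. Against Cd4-positive, Cd8-negative cells free of Csf1r and Cd79a, Atp8b4 was at -0.98 and Ccl3 at 0.97 in Runx3. Without the condition on Csf1r and Cd79a, Bcl2 was at -0.98 and Znrf3 at -0.64 in Runx3_fl, and Atp8b4 at -0.61 in Runx3. Bcl2, the survival factor of naive and memory T cells, stood at 27.9 against 83.1 CPM in Runx3_fl and at 50.9 against 203 in Runx3. Pde3b, a phosphodiesterase that Foxp3 is known to repress, stood at 453 against 1109 and at 129 against 613, and its log2 ratio in Runx3_fl was -0.74 with only the Treg cells that had Y-linked UMIs and no Xist. Tnf was the only one of the effector cytokines above the level filter, at 31.4 against 87.5 CPM and at 63.7 against 129, and its log2 ratios turned to 2.27 and 0.048 without the condition on Csf1r and Cd79a. Against Foxp3-zero T cells free of Csf1r and Cd79a, Tnf was at -0.077 in Runx3_fl and -0.27 in Runx3. Il21, Il22, Il4, Il5 and Il13 had 0 UMIs in Treg cells of both libraries, where 3 UMIs would be 10.5 CPM in Runx3_fl and 6.37 CPM in Runx3. Ifng stood at 153 against 352 CPM and at 19.1 against 79.4.

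The immunoglobulin genes Jchain, Igkc and Igha, which plasma cells make, depended on the comparison population. In Runx3 Igkc stood at 4188 CPM in all Foxp3-zero T cells, at 6945 in their Cd8-positive part and at 428 in their Cd4-positive part, against 269 in Treg cells. Against the Cd4-positive part the log2 ratios in Runx3 were -0.67 for Igkc, 0.08 for Igha and 0.56 for Jchain, whereas in Runx3_fl they were -3.33, -2.61 and -5.00. In Runx3_fl, T cells of the Treg depth range gave -0.69 for Igkc and -0.64 for Igha. T cells free of Csf1r and Cd79a gave -1.27 and -1.20 there. Jchain stayed past 2-fold lower in Runx3_fl against both. The plasma cell list of 6 genes summed to 286 CPM in Treg cells and 3041 in Foxp3-zero T cells of Runx3_fl, and to 656 and 7816 in Runx3. Its 3 measured genes were past 2-fold lower in both libraries. The macrophage list of 12 genes summed to 464 and 1009 CPM in Runx3_fl and to 522 and 2680 in Runx3, with Lyz2 and Ly6c2 past 2-fold lower in both, the rule having removed cells with Csf1r from the Treg cells alone. Against Cd4-positive, Cd8-negative cells without Csf1r and Cd79a, Lyz2 was higher in Treg cells, at 1.93 and 1.47. Conversely Ighm, a B cell gene, was among the 81 higher genes, at 122 against 30.5 CPM and at 221 against 108. Summed neutrophil markers were at 48.8 against 66.2 CPM in Runx3_fl and at 174 against 3577 in Runx3. Among single Treg cells the macrophage sum ran from 0 to 2452 CPM in Runx3_fl, with 4 of the 12 genes at 0 in the pool, and from 0 to 2955 in Runx3, with 1 at 0. At least 3 UMIs of lists of other cell types were found in 23 of 29 and 42 of 43 Treg cells. The part of other cells' RNA in these differences was not tested.

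The libraries were next compared within Treg cells. The gene that the study targets, Runx3, stood at 240.5 CPM (187 to 304) in Treg cells of Runx3_fl and at 216 (176 to 263) in those of Runx3, with a log2 ratio of -0.15. In macrophages, the cells in which Lyz2-driven Cre acts, it stood at 163 CPM in Runx3_fl and at 209 in Runx3, so it was not lower in the library titled Runx3. These counts are of the whole gene, and whether they cover the deleted part is not given in the sources used here. Lyz2 itself stood at 3694 CPM in macrophages of Runx3_fl and at 1382 in those of Runx3. In Treg cells it had 24 UMIs in 5 of 29 cells of Runx3_fl and 34 UMIs in 17 of 43 of Runx3.

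Of the other genes of this family, Runx1 stood at 638 CPM in Runx3_fl and 1585 in Runx3 in Treg cells (log2 ratio 1.31) and Runx2 at 1119 and 516 (-1.12). In the Foxp3-zero T cells the corresponding ratios were 0.53 and -2.77. Nr4a1 and Zfp36, which the study followed in macrophages, were also read. Nr4a1 stood in Treg cells at 241 CPM in Runx3_fl and 420.2 in Runx3, and Zfp36 at 237 and 936. Thinned, the ratios were 0.98 for Runx1 and -0.93 for Runx2. Nr4a1 and Zfp36 were also higher in Runx3 in the Foxp3-zero T cells, by 1.01 and 2.63 on the log2 scale against 0.80 and 1.98 in Treg cells.

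Over 3582 genes with a mean of at least 50 CPM over both libraries' Treg cells, 209 (5.83%) were past 2-fold higher in Runx3 and 173 (4.83%) past 2-fold lower. The same genes in Foxp3-zero T cells gave 320 (8.93%) and 287 (8.01%). Of the 209, 111 were past 2-fold higher in the Foxp3-zero T cells too and 1 past 2-fold lower. Of the 173, 77 were lower there and 5 higher.

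Of 20 measured genes of a stress list, which holds heat shock and immediate early genes, 7 were past 2-fold higher in Treg cells of Runx3 and 0 were lower. Hspa1a and Hspa1b encode the inducible HSP70 and are near-identical copies, so reads can be assigned to either. Hspa1b stood at 10.5 CPM in Treg cells of Runx3_fl and at 458 in Runx3 (log2 ratio 5.33), and Hspa1a at 24.4 and 446 (4.14). In Foxp3-zero T cells the ratios were 4.47 and 4.18. The others of the 7 were Atf3, Jun, Zfp36, Fos and Dusp1, and the list had a median of 0.80 in Treg cells and 1.28 in Foxp3-zero T cells. Thinned, Fos was at 0.78 and Dusp1 at 0.59, and without cells with over 5000 CPM of class II genes Fos was at 0.75 and Jun at 0.99, under 2-fold. Such genes also respond to tissue dissociation, and their part here was not tested.

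Of 7 measured genes of the interferon list, Irf7, Bst2, Ifi27l2a and Rtp4 were past 2-fold higher in Treg cells of Runx3 and 0 were lower, and the medians were 1.35 in Treg cells and 1.89 in Foxp3-zero T cells. Bst2, which tethers virus particles at the cell surface, stood at 80.2 CPM in Treg cells of Runx3_fl and at 367 in Runx3. Ifitm3, which blocks virus entry and is one of the leading genes but not of the list, was at 55.8 and 467. Ifi27l2a stood at 1464 and 3724 CPM. Without cells with over 5000 CPM of class II genes the log2 ratios between the libraries were 0.89 for Ifitm3 and 0.80 for Irf7, Rtp4 was at 0.68 without the condition on Csf1r and Cd79a, and Ifi27l2a at 0.95 after thinning. Within each library Ifi27l2a was also past 2-fold higher in Treg cells than in Foxp3-zero T cells, at 1464 against 424 CPM and at 3724 against 1571, the latter under 2-fold (0.97) against Cd4-positive, Cd8-negative cells, as was Igtp in Runx3 (0.68). The interferon-gamma inducible GTPases Igtp, Iigp1 and Gbp6, named after their values were seen, were likewise among the 81 genes higher in Treg cells of both libraries. Igtp in Runx3 was only at 1.01 and fell under 2-fold in many alternatives. Against Cd4-positive, Cd8-negative cells free of Csf1r and Cd79a, Igtp in Runx3 was at 0.31 and Iigp1 at 0.91. Without the condition on Csf1r and Cd79a, Gbp6 in Runx3 was at 0.71. Iigp1 stood at 237 against 22.2 CPM in Runx3_fl and at 149 against 58.8 in Runx3.

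**Figure D4:**
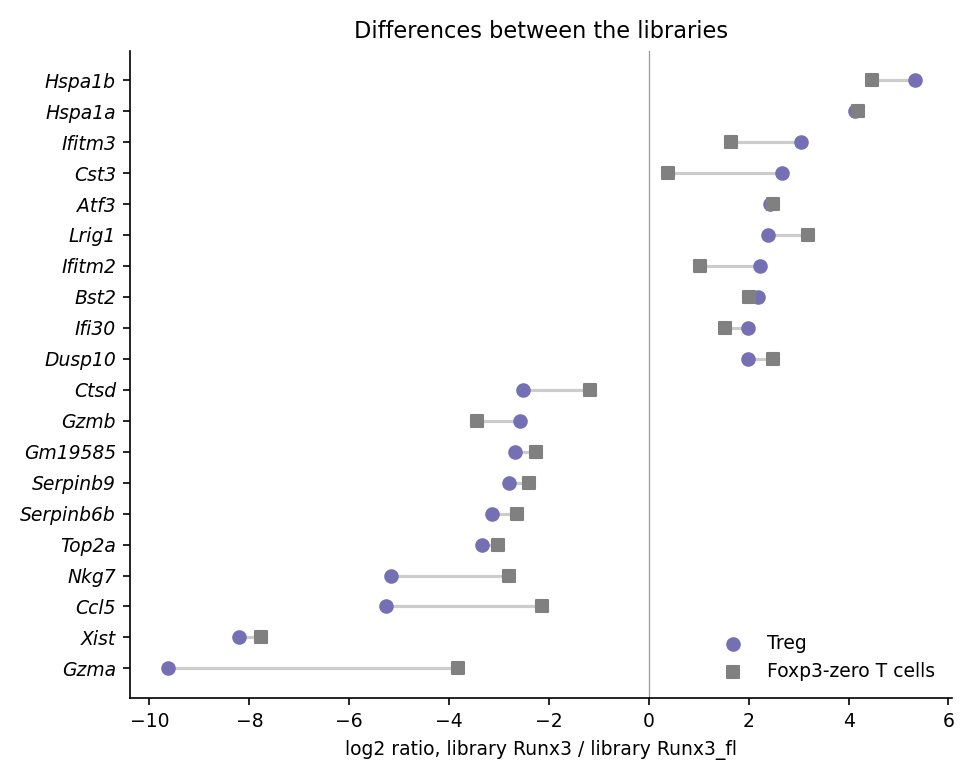
Log2 ratio of library Runx3 over library Runx3_fl (x axis) for the 10 genes with the largest positive and the 10 with the largest negative ratio in Treg cells (circles), with the ratio in Foxp3-zero T cells beside it (squares). Hspa1b was at 5.33 in Treg cells and 4.47 in the other T cells, Cst3 at 2.66 and 0.39, and Xist, with 0 UMIs in Treg cells of Runx3, is drawn with 1 CPM added and is not a measured size.

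The genes lower in Runx3 than in Runx3_fl were led by cytotoxic genes and Xist. Xist had 85 UMIs in 12 Treg cells of Runx3_fl and 0 in Runx3. Gzma, which encodes granzyme A, had 711 UMIs in 7 Treg cells of Runx3_fl and 1 UMI in Runx3, 2478 and 2.12 CPM. Ccl5 stood at 2165 and 55.2 CPM, and Nkg7, a granule protein gene, at 645 and 17.0. These genes were also lower in the Foxp3-zero T cells of Runx3, at -3.81 for Gzma, -2.14 for Ccl5 and -2.81 for Nkg7. The cytotoxic list had a median of -3.88 in Treg cells and -2.48 in Foxp3-zero T cells. Of 6 measured cytotoxic genes, Klrd1, Nkg7, Ccl5, Gzma and Gzmb were past 2-fold lower in Runx3 and Ccl4 was past 2-fold higher. Ccl4 turned to -1.70 without the condition on Csf1r and Cd79a, and Klrd1 to 1.45 without cells with Trdc or Cd8 UMIs. Gzmb, which encodes granzyme B and which activated Treg cells are known to use, was more evenly spread, with UMIs in 22 of 29 and 19 of 43 cells and 2367 and 393 CPM, and was also lower in the Foxp3-zero T cells (log2 ratio -3.43 against -2.59 in Treg cells).

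Most of the Gzma signal came from 3 cells. In Runx3_fl 3 of 29 Treg cells held UMIs of Trdc, the constant gene of the T cell receptor delta chain, and these held 695 of the 711 Gzma UMIs, 413 of the 621 Ccl5 UMIs and 79 of the 185 Nkg7 UMIs. They carried 5 Foxp3 UMIs in all and 104 Ikzf2 UMIs, and 1 of them held Cd4 UMIs. The other 26 cells held Gzma at 68.0 CPM (38.9 to 111), Ccl5 at 884 and Nkg7 at 451, and Gzmb at 1905. In Runx3 0 of 43 Treg cells held Trdc. Without cells with Trdc or Cd8 UMIs the log2 ratios between the libraries were -4.44 for Gzma, -3.72 for Ccl5, -4.52 for Nkg7 and -2.07 for Gzmb.

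**Figure D5:**
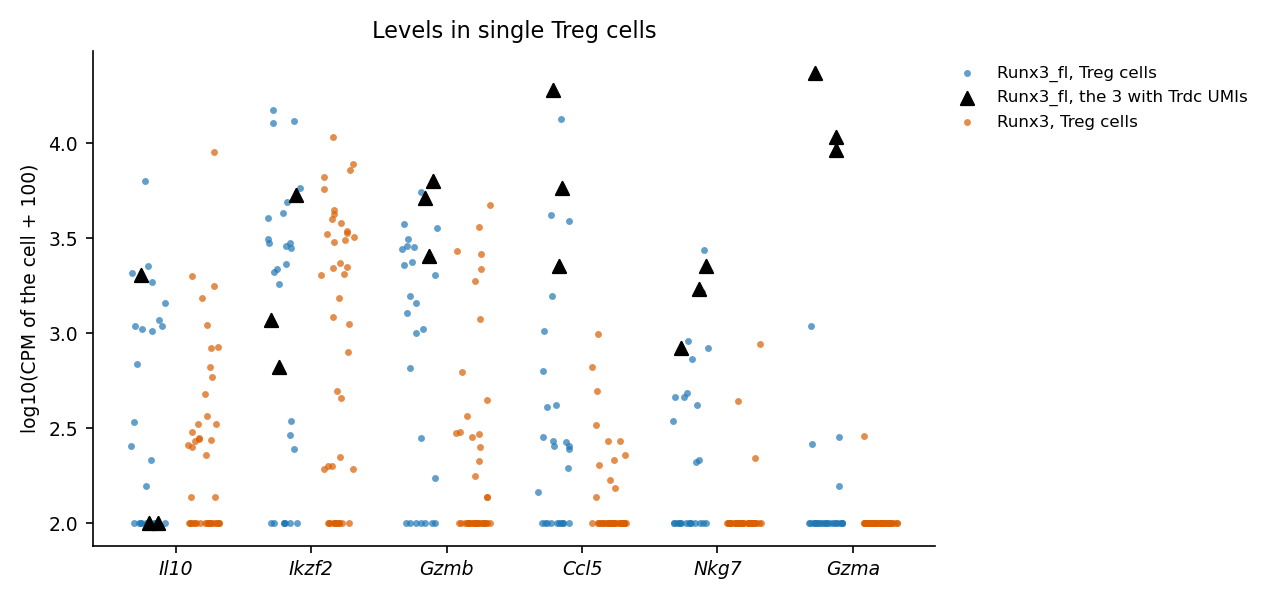
Level of 6 genes in single Treg cells (y axis, log10 of the cell's CPM plus 100, so a cell without a UMI lies at 2), for 29 cells of Runx3_fl and 43 of Runx3, each point a cell. The 3 cells of Runx3_fl with Trdc UMIs, drawn as triangles, held 695 of 711 Gzma UMIs.

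Antigen presentation genes marked another small set of cells. Over 5000 CPM in the class II genes Cd74, H2-Aa and H2-Ab1 together was found in 2 of 29 Treg cells of Runx3_fl and 8 of 43 of Runx3, and in 7.75% and 26.3% of Foxp3-zero T cells. In Runx3 these 8 cells had a median of 20356 UMIs against 8243 in the other Treg cells and held a median of 27 UMIs of Cst3, a gene of dendritic cells. Cst3 as a whole stood at 149.9 CPM in Treg cells of Runx3_fl and at 955 in Runx3, with 248 of its 450 UMIs in 1 cell. Without cells over that level the log2 ratio of Cst3 between the libraries was 0.01 in place of 2.66. Whether these barcodes caught more than a single cell was not tested, since no doublet caller was run.

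Of 7 measured cell cycle genes, Stmn1, Mki67 and Top2a were past 2-fold lower in Runx3 Treg cells and 0 were higher. Top2a stood at 289 and 27.6 CPM in Treg cells and at 350.1 and 42.1 in Foxp3-zero T cells. In Treg cells of Runx3_fl 68 of the 83 Top2a UMIs came from 3 cells. Mki67 was found in 5 of 29 and 9 of 43 Treg cells, a share that does not follow its pooled level of 125 and 53.1 CPM, and no order is read from it. Thinned to 2000 UMIs, 10.7% and 7.14% of Treg cells and 24.7% and 2.98% of Foxp3-zero T cells held Mki67. These differences rested on few cells of Runx3_fl. Of its Mki67 UMIs 34 of 36 lay in 3 cells with Xist and no Y-linked UMI, and in Treg cells with Y-linked UMIs and no Xist, Mki67 stood at 6.43 CPM (15 cells) and 55.4 CPM (41 cells) and Top2a at 57.9 and 28.8. In those cells the log2 ratios between the libraries were 2.92 for Mki67, 0.66 for Stmn1 and -0.98 for Top2a, and without the deepest Treg cell of each library Mki67 was at 0.091.

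Of the 4 markers other than Foxp3, only Il2ra was past 2-fold between the libraries, at 708 CPM (614 to 812) in Runx3_fl and 282 (236 to 334) in Runx3, a log2 ratio of -1.32. In Runx3_fl 3 cells held 109 of its 203 UMIs, and the median cell stood at 248 CPM against 194 in Runx3. Il2ra had a UMI in 20 of 29 and 33 of 43 cells, and it was also lower in the Foxp3-zero T cells of Runx3. The list of tissue Treg genes had a median of -0.20 over 9 measured genes, with Klrg1 past 2-fold lower and 0 higher, and Klrg1 was at -0.73 without cells with Trdc or Cd8 UMIs. Tox stood at 491 and 1082 CPM, a log2 ratio of 1.14 that was 0.79 with at least 2 Foxp3 UMIs, 0.83 after thinning and 0.65 without the condition on Csf1r and Cd79a. Itgae at 97.6 and 104 CPM, Itgav at 1133 and 1169 and Rora at 1652 and 1706 had intervals that include 0, with log2 ratios of 0.09 (-0.61 to 0.82), 0.05 (-0.15 to 0.25) and 0.05 (-0.12 to 0.21).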

How the data were processed

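Droplet libraries (2) of colon lamina propria cells, 1 per group, were analysed. The authors deposited raw UMI counts per gene and cell as filtered 10x matrices made with Cell Ranger 7.1.0 on mm10, where intronic reads count by default (setting not given in the sources used here). The submitters' notes name Seurat 4. Cells with 200 to 6000 genes and at most 15% mitochondrial UMIs were kept, as in the study, 20052 of 21921. No doublet caller was run. UMIs were pooled per population, scaled to CPM and compared as log2 ratios with 1 CPM added, with exact Poisson, Clopper-Pearson and conditional binomial 95% intervals (Python 3.11.15, numpy 2.4.6, scipy 1.17.1). Genes needed a mean of 50 CPM over the 2 groups compared, so a single group could carry a gene in, and 2-fold was the limit for a call. Leading genes were the 12 largest ratios in each direction by the library closer to 0, with a UMI in 10% of cells, and the 10 largest between libraries, at 100 CPM and 20% of cells. Members and gene lists were chosen with earlier results of these data known. With 1 library a group, no test was made. Alternatives changed the Foxp3, CD3, mitochondrial and gene limits, the depth, the comparison cells, the CPM added and the level filter. The steps were tested on simulated data. Coordinates are from GENCODE M21 (GRCm38). No promoter or other sequence is shown, since the data bear on transcripts only. Results for 1 gene are not reported here.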

Additional observations from a re-analysis of the deposited data

Results flagged for a closer look

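Several genes were past 2-fold in opposite directions in the libraries when Treg cells were set against Foxp3-zero T cells (log2 of CPM plus 1, Runx3_fl first). None of these differences between libraries was tested, since each group is 1 library. Atrnl1 was at 1.25 and -1.11, and Jmy at 1.61 and -1.03. Btbd11 was at 1.60 and -1.27, with 68 of its 71 UMIs in Treg cells of Runx3_fl from 1 cell. Creb5 was at 1.75 and -2.70, with 27 of 47 UMIs from 1 cell of Runx3_fl, and Ptgs2, the inducible cyclooxygenase gene, at 1.17 and -1.64, with 112 of 139. Cst3 was at -1.02 and 1.26, with 248 of 450 UMIs from 1 cell of Runx3, and Prim2 at -1.12 and 1.11, with 27 of 40.

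Some cells with Foxp3 and CD3 UMIs lay outside the rule because they also held Csf1r or Cd79a, 18 in Runx3_fl and 35 in Runx3. Their median depths were 17711.5 and 18830 UMIs. Ctla4 was found in 94.4% and 88.6% of them, Ikzf2 in 88.9% and 71.4%, and the myeloid gene Lyz2 in 88.9% and 60%. Whether such a barcode held more than a single cell was not tested.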

How the results depend on the processing

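No paired analysis was possible because each group is 1 library. Ratios are log2, of Treg cells over Foxp3-zero T cells unless named as between libraries. With at least 2 Foxp3 UMIs asked of a Treg cell, the shares of T cells were 0.513% in Runx3_fl and 4.90% in Runx3, 40 genes were past 2-fold lower than in Foxp3-zero T cells in both libraries, 273 were lower in Treg cells of Runx3, and in Runx3_fl Atrnl1 was at -0.22, Btbd11 at -2.28, Creb5 at -5.61 and Ptgs2 at -3.29. With at least 2 CD3 UMIs, Creb5 was at -5.61 and Ptgs2 at -3.45 there. Thinned to 2000 UMIs, the shares were 0.376% and 4.50%, 52 genes were lower in both libraries, 448 were higher and 425 lower in Runx3, Cxcl2 was at 0.21, Itgb8 at -0.90 and Cst3 at 0.33 in Runx3_fl, and Prim2 at -0.34 in Runx3. Leaving out cells with 3 or more UMIs of other lineages gave 1.61% and 10.0%, and left 6 and 1 Treg cells, too few for ratios. At a mean of 100 CPM, 12 genes were lower in both libraries, and 82 were higher and 88 lower in Runx3. Without the deepest Treg cell of each library, Mki67 between libraries was at 0.091. Against Cd4-positive, Cd8-negative cells, 15 genes were lower in both libraries, Jchain was at 0.56 and Igha at 0.082 in Runx3, and Ly6c2 at 0.11 in Runx3_fl. In Runx3_fl, T cells of the Treg depth range gave Lyz2 at 0.42 and Cst3 at 0.31, and T cells free of Csf1r and Cd79a gave Cxcl2 at 0.13 and Lyz2 at 1.52.

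These alternatives were chosen after seeing the data. Without the condition on Csf1r and Cd79a, 46 genes were higher and 14 lower in both libraries and 112 were lower in Runx3. In Runx3_fl Jchain was then at 1.73, Igkc at 2.69, Igha at 2.85, Ccl3 at 1.36, Cxcl2 at 2.23, Tnf at 2.27, Lyz2 at 1.58 and Cst3 at 0.40, in Runx3 Tnf at 0.048, Creb5 at 0.074 and Ptgs2 at 0.54, and between libraries Ccl4 at -1.70. Against Cd4-positive, Cd8-negative cells free of Csf1r and Cd79a, Cxcl2 was at 0.65, Tnf at 0.17, Lyz2 at 1.93 and Ly6c2 at 0.27 in Runx3_fl, and Jchain at 0.32, Ccl3 at 0.97, Tnf at 0.89, Lyz2 at 1.47 and Ptgs2 at 1.40 in Runx3. With Treg cells that held Y-linked UMIs and no Xist, 314 genes were higher in Runx3, Frmd5 was at -3.11, Areg at -1.05 and Btbd11 at -2.56 in Runx3_fl, and between libraries Stmn1 was at 0.66 and Mki67 at 2.92. Without cells high in class II genes, Creb5 was at -3.90, Ptgs2 at -1.47 and Cst3 at 0.013 in Runx3_fl, and Cst3 at -0.44 and Prim2 at -0.33 in Runx3. Without cells with Trdc or Cd8 UMIs, Klrd1 between libraries was at 1.45. Causes were not tested. The other 67 values for shares and counts of genes stayed within their interval or 1.5 times of the value reported. Of 153 values past 2-fold for the single genes recomputed, 81 stayed past it in the same direction in every alternative with ratios, and 29 turned in at least 1. The 29 and 43 Treg cells limit every level below about 3 UMIs a pool, 10.5 and 6.37 CPM.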
